A study of Homo sapiens with 23 samples.

Results

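The libraries labelled BAP1 KO were compared with those labelled control in HCT116, a cell line from a human colorectal cancer. The members were chosen by sample title and are 4 of the 23 samples of the series and 4 of its 8 RNA-seq libraries, 2 in each group. Both groups carry osTir1, a plant auxin receptor used to degrade tagged proteins, in the names of their deposited tables, and the genotype of control is given as WT. The table names of the BAP1 KO replicates also carry differing numbers whose meaning is not given. The other RNA-seq groups, WT and MLL4 KO, carry no such mark. The series asks how binding of BAP1 and of MLL4, an enhancer methyltransferase, depends on each other, and its 15 ChIP-seq samples were not analysed here. All cells were grown in the same medium. A treatment text that describes tagged BAP1 for ChIP-seq is attached to every sample, and whether it applies to the RNA libraries is not stated. How BAP1 was knocked out, whether each group is 1 clone, and whether replicates were separate cultures is not given by the labels. A p-value therefore covers no more than the spread among libraries. That spread was estimated over all 8 RNA-seq libraries, WT and MLL4 KO included.

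BAP1 is a nuclear deubiquitinase and a tumour suppressor, best known from mesothelioma and uveal melanoma. With an ASXL protein it forms the Polycomb repressive deubiquitinase (PR-DUB), which removes the ubiquitin that the Polycomb repressive complex PRC1 places on histone H2A. Forkhead proteins of the FOXK family, the chromatin adaptor HCFC1 and the glycosyltransferase OGT bind the complex. A further Polycomb complex, PRC2, methylates histone H3, and HOX and other developmental genes are classic Polycomb targets.

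Each library held 24.8 to 42.2 M gene counts (M, 1e6 reads), with 27.02 and 40.58 M in control and 30.1 and 28.1 M in BAP1 KO. Levels are in CPM, read counts per 1e6 scaled for library composition. Across genes, which are not independent replicates, the replicates correlated at r = 0.992 (control) and 0.985 (BAP1 KO). Of 13 markers of colorectal epithelium all but CDX1 had reads. Their summed level was 6360 and 6371 CPM in control, 3133 and 3763 CPM in BAP1 KO and 4014 and 3905 CPM in WT. The keratins KRT8, KRT18 and KRT19 held most of these reads in each library. Of 9 fibroblast markers 6 had no read in the 4 libraries. The fibroblast sum nevertheless ranged from 43.5 to 55.2 CPM per library. Nearly all of it came from the collagen gene COL1A1, which had 1214 to 2117 reads. Immune cell and endothelial markers summed to at most 1.95 and 2.32 CPM. The ribosomal RNA precursor gene RNA45SN5 took 1.07% and 0.905% of the gene counts in control against 0.636% and 0.656% in BAP1 KO. The counts of all ribosomal RNA genes summed to 10.5% and 8.84% against 6.22% and 6.42%. Near-identical copies can share reads, so these sums may count the same read more than once. Control also stood apart from WT for many genes, so WT levels, or whether BAP1 KO lay outside their range, are given beside part of the genes named. In bulk RNA, fewer cells of a kind and less RNA per cell cannot be told apart.

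BAP1 messenger RNA did not separate the groups, so every direction below rests on the labels. BAP1 (chromosome 3, 52401008 to 52410008, hg38) stood at 56.7 and 62.1 CPM for control against 67.4 and 57.4 CPM for BAP1 KO, a log2 difference of 0.07 ± 0.13 (SE, n = 2 against 2, adjusted p = 0.746 by edgeR's quasi-likelihood test). The part of the gene that was edited is not given, so this level checks nothing. Among 11 tested genes of PR-DUB and its partners, ASXL1, the scaffold that activates BAP1, rose by 0.42 ± 0.12 (adjusted p = 0.0328), a call that ended without control replicate 1, control replicate 2 or BAP1 KO replicate 1 (adjusted p 0.255, 0.171 and 0.226). The others did not pass: FOXK1, which recruits the complex to DNA, was at -0.09 ± 0.12, ASXL2 at 0.12 ± 0.12 and OGT at -0.35 ± 0.13.

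Of 16831 genes tested, 3778 (22.4%) passed an adjusted p of 0.05, 2035 higher (12.1%) and 1743 lower (10.4%) in BAP1 KO, around a median log2 change of 0.01 over all genes. Changes are given as log2 of BAP1 KO over control, with their SE. The 2 libraries of each group did not overlap for 72.2% of tested genes. At least 2-fold, 843 (5.01%) rose and 767 (4.56%) fell. The largest changes were mostly falls: 302 genes fell and 175 rose by at least 4-fold, and 66 fell and 24 rose by at least 16-fold. Of the genes that rose, 1178 (57.9%) were above all control and WT libraries, and of those that fell, 1039 (59.6%) were below all of them. Over all tested genes, called or not, the shares were 19.4% and 17.1%. A call already places a gene to 1 side of control, so the shares of called genes cannot be set directly against these. The count of calls was 1163 and 1076 without control replicate 1 or 2 and 1348 and 2383 without BAP1 KO replicate 1 or 2, and 900 calls held in every alternative that tested them other than the test against a 1.5-fold change. Below, where 1 of these 4 libraries moved the count of a list by over 1.5 times, the called members left without each are given in that order: control replicate 1, control replicate 2, BAP1 KO replicate 1, BAP1 KO replicate 2.

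**Figure D1:**
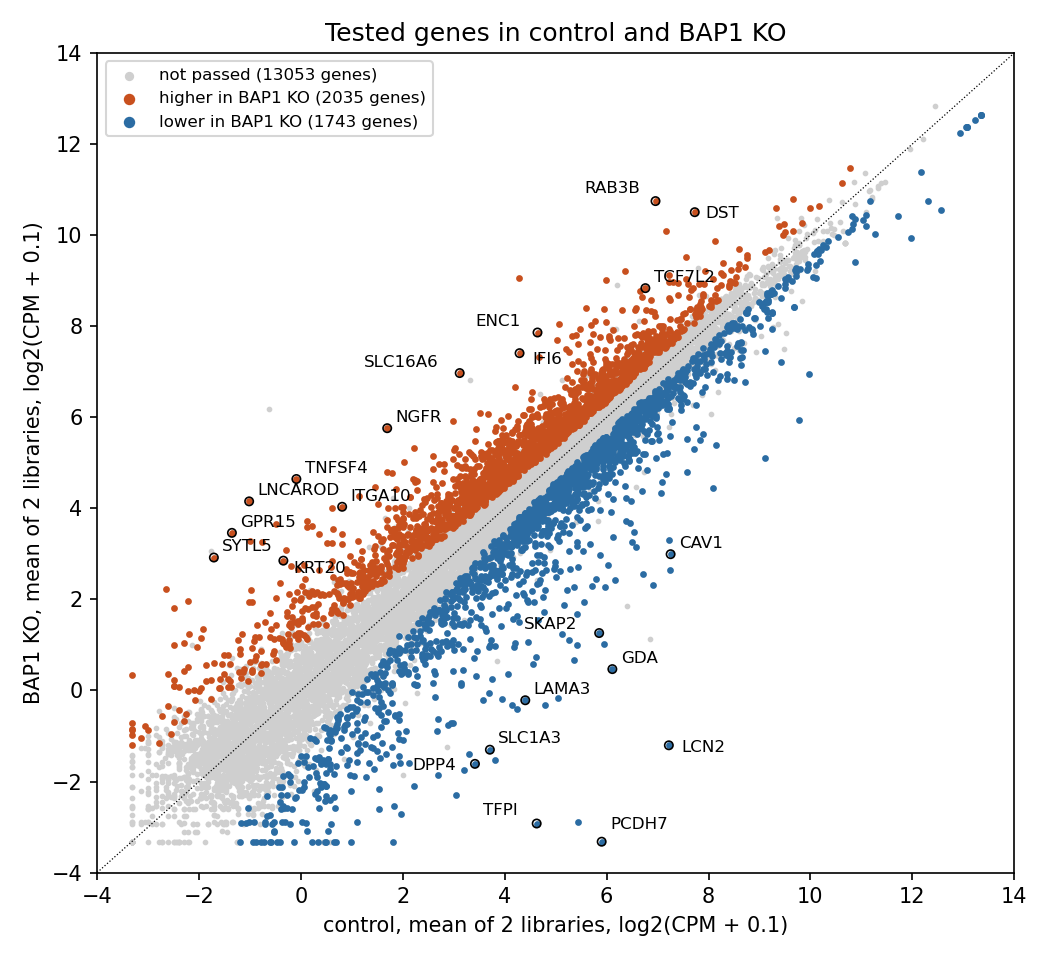
Mean level of each tested gene in control (x axis) and BAP1 KO (y axis), both as log2(CPM + 0.1) over 2 libraries; orange and blue points passed an adjusted p of 0.05 and grey points did not. The 302 genes that fell at least 4-fold reach farther from the dotted line of equal levels than the 175 that rose, and PCDH7 lies at the floor in BAP1 KO.

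Some genes fell to 0 or near 0 reads in BAP1 KO. PCDH7 (chromosome 4, 30720369 to 31146800), a protocadherin, had 59.9 and 59.6 CPM for control against 0 and 0 CPM for BAP1 KO, at least 589.6-fold lower with a floor of 3 counts per library. TFPI (chromosome 2, 187464230 to 187554435), the inhibitor of tissue factor, had 25.8 and 23.4 CPM for control against 0.0638 and 0 CPM for BAP1 KO, where the 2 BAP1 KO reads give a ratio of 724 (95% counting interval 200.003 to 5981). WT was also far above BAP1 KO, with 81.9 and 76.1 CPM for WT for PCDH7 and 12.1 and 9.44 CPM for WT for TFPI. GDA, guanine deaminase, stood at 67.5 and 70.7 CPM for control against 0.893 and 1.67 CPM for BAP1 KO and fell by 5.76 ± 0.29 in log2 units (adjusted p = 1.07e-05). SLC1A3, a glutamate transporter, had 13.3 and 12.7 CPM for control against 0.255 and 0.356 CPM for BAP1 KO (fell by 5.40 ± 0.34, adjusted p = 2.96e-05). The groups did not overlap, and BAP1 KO was also below WT for both genes, at 52.8 and 59.8 CPM for WT and 26.5 and 18.8 CPM for WT.

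DPP4, a brush border peptidase, had 11.3 and 9.82 CPM for control against 0.383 and 0.0712 CPM for BAP1 KO and fell by 5.46 ± 0.62. PROM2, a membrane protein related to the stem cell marker CD133, had 14.3 and 13.5 CPM for control against 0 and 0.499 CPM for BAP1 KO and fell by 5.85 ± 0.59. CR2, a complement receptor, fell by 4.84 ± 0.25 and the lipase gene MGLL by 4.78 ± 0.30, each below both WT libraries. LCN2, a siderophore-binding protein, stood at 152 and 146 CPM for control against 0.383 and 0.285 CPM for BAP1 KO, and fell by 8.78 ± 0.50. Control stood above WT here, which had 1.36 and 0.156 CPM for WT. The protease inhibitor SLPI was at 8.38 and 9.90 CPM for control against 0.255 and 0.142 CPM for BAP1 KO, with 0.349 and 0.0625 CPM for WT. The hexokinase-related HKDC1 was at 34.8 and 30.6 CPM for control against 0.670 and 0.926 CPM for BAP1 KO, with 1.28 and 0.875 CPM for WT, so control again stood above the other groups.

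Rises were led by genes that control barely expressed. LNCAROD, a long noncoding RNA, stood at 0.353 and 0.436 CPM for control against 16.5 and 18.9 CPM for BAP1 KO and rose by 5.44 ± 0.57 on the log2 scale (adjusted p = 0.000488). GPR15, a chemoattractant receptor known from gut-homing lymphocytes, stood at 0.274 and 0.308 CPM for control against 13.8 and 7.98 CPM for BAP1 KO (log2 change 5.20 ± 0.45). TNFSF4, the T-cell costimulator OX40 ligand, stood at 0.705 and 0.974 CPM for control against 30.2 and 19.6 CPM for BAP1 KO (log2 change 4.85 ± 0.51). The groups lay far apart for all 3 and BAP1 KO was above both WT libraries. NGFR, the low-affinity neurotrophin receptor, had 3.45 and 2.82 CPM for control against 54 and 54.2 CPM for BAP1 KO and rose by 4.12 ± 0.21 (adjusted p = 1.07e-05). SLC16A6, a monocarboxylate transporter, had 9.24 and 7.90 CPM for control against 119 and 132 CPM for BAP1 KO and rose by 3.88 ± 0.17 (adjusted p = 6.49e-06). RAB3B, a GTPase of secretory vesicles, was abundant after its rise, at 129 and 120.1 CPM for control against 1896 and 1542 CPM for BAP1 KO and 83.7 and 192 CPM for WT, a log2 change of 3.79 ± 0.38 (adjusted p = 0.000821). Among genes well expressed in both groups, the haem synthesis enzyme gene CPOX rose by 2.94 ± 0.16 (141 and 146 CPM for control against 1177 and 1014 CPM for BAP1 KO). The deubiquitinase gene USP46 rose by 2.33 ± 0.13 (51 and 52.7 CPM for control against 283 and 239.9 CPM for BAP1 KO). TCF7L2, a WNT transcription factor gene, rose by 2.08 ± 0.12 (107 and 109 CPM for control against 466 and 448 CPM for BAP1 KO). Each of these was above all control and WT libraries. PALM3, at 0.392 and 0.410 CPM for control against 12 and 7.23 CPM for BAP1 KO, and MAP1A, at 1.49 and 1.36 CPM for control against 17.5 and 14.5 CPM for BAP1 KO, also rose, to the level of WT, 8.22 and 13 CPM for WT and 15.4 and 12.1 CPM for WT.

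Promoters of the genes that fell most held fewer CG dinucleotides and more often the motif of AP-1, a factor downstream of MAPK signals. RefSeq (GRCh38.p14) gave 1 window of 250 bases before to 50 after the start for 9335 of the tested genes, and genes with several windows were left out. The median window held 26 CG dinucleotides over all 9335 genes, 28 in those that rose, 26.5 in those that fell, 16 in the 148 that fell at least 4-fold and 20 in the 86 that rose at least 4-fold. The AP-1 motif TGANTCA, which reads the same on both strands, was in 4.81% of all windows and in 12.2% (18 genes) of those that fell at least 4-fold, against 3.49% (3 genes) of those that rose at least 4-fold. The YY1 motif CCATNTT, searched on both strands because YY1 binds BAP1, was in 15.5% of all windows, 11.5% of the former and 10.5% of the latter. No motif searched contains another. The forkhead motif TGTTTAC, on both strands, was in 2.27% of all windows, 2.70% of the former and 2.33% of the latter, and the E-box CACGTG in 9.94%, 7.43% and 4.65%. Among all 988 genes that fell and all 1112 that rose, the AP-1 shares were 6.28% and 3.24% and the YY1 shares 15.3% and 12.4%. Forkhead was in 1.92% and 0.989% of them. The E-box was in 13.7% and 8.54%, so its share among falling genes depended on the size of the fall. These shares are descriptions, and a match is not a binding site.

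The 250 bases before the start of LAMA3 and LCN2, which fell, and of RAB3B, which rose, are shown with the AP-1 motif in capitals, 5′ to 3′ on the gene's strand (GRCh38.p14; LAMA3 chr18:23872770-23873019, plus; LCN2 chr9:128149203-128149452, plus; RAB3B chr1:51990701-51990950, minus). The first base of the motif lies 125 and 69 bases before the start in LAMA3, 52 in LCN2 and 119 in RAB3B, so the motif stands before genes of either direction.
LAMA3: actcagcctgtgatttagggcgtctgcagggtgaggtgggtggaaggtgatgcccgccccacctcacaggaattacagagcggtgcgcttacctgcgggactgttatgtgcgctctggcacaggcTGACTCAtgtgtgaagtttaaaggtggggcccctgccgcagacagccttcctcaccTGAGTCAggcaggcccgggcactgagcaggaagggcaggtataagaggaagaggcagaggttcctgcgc
LCN2: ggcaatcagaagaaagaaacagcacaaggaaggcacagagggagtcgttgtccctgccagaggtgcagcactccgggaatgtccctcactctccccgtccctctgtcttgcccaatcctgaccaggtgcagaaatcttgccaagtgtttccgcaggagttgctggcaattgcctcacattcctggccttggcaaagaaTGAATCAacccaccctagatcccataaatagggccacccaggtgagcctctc
RAB3B: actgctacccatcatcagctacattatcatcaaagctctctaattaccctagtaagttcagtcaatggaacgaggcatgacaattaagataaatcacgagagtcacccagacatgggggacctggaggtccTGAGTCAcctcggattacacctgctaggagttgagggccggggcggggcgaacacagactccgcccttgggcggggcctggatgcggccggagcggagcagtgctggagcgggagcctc

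The same stretch of PCDH7 (chr4:30720119-30720368, plus) and TFPI (chr2:187554436-187554685, minus), with 0 and 2 reads over both BAP1 KO libraries, is shown with CG in capitals, since CG density differed among the falling genes. PCDH7 has 10 CG dinucleotides in these 250 bases and TFPI has 2. In the windows of 300 bases they have 16 and 4, against the median of 26 over all genes with 1 window and 16 in those that fell at least 4-fold. Both lie below the median of 26, so these 2 genes show nothing about falls at higher CG counts.
PCDH7: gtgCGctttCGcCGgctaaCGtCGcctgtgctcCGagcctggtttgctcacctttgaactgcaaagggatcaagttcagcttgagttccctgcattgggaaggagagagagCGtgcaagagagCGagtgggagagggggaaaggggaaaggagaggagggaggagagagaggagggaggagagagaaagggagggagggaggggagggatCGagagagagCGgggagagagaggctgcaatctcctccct
TFPI: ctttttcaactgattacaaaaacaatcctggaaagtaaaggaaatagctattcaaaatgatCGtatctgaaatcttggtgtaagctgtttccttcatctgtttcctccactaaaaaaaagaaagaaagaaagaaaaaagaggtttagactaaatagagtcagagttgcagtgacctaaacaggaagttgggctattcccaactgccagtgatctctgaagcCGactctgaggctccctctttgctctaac

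HOX genes split by cluster. Of 31 tested, 12 fell and 6 rose (12, 10, 14 and 12 with 1 library left out), a median of -0.55. All 6 that rose are HOXB genes, HOXB3 to HOXB8, and 9 of the 12 that fell are HOXA genes, beside HOXD3, HOXD8 and HOXC10. All 18 lay outside the range of control and WT, where 57.9% of all genes that rose lay above it and 59.6% of all that fell lay below it. HOXA3 was at 12.3 and 11.3 CPM for control against 0.830 and 0.712 CPM for BAP1 KO and fell by 3.92 ± 0.53. HOXA11 was at 10.8 and 13.2 CPM for control against 4.34 and 4.17 CPM for BAP1 KO and fell by 1.50 ± 0.20. HOXA10 was at 34.2 and 36.9 CPM for control against 17.8 and 19.3 CPM for BAP1 KO and fell by 0.94 ± 0.13. Log2 changes were -1.62 ± 0.27 for HOXA5, in the middle of the cluster, and -0.91 ± 0.15 for HOXA9 towards the 5′ end. HOXA2, with under 1 CPM in each WT, control and BAP1 KO library, and HOXA13 at the 5′ end did not pass (adjusted p = 0.0621 and 0.0992). HOXA4 kept 2 reads in BAP1 KO, a ratio of 42.8 (95% counting interval 11.5 to 358.8). On the HOXB side HOXB3 had 15.4 and 13.8 CPM for control against 41.9 and 47.7 CPM for BAP1 KO (log2 change 1.62 ± 0.21). HOXB4 had 9.71 and 10.8 CPM for control against 31.6 and 39.3 CPM for BAP1 KO (log2 change 1.78 ± 0.21). HOXB2, HOXB9 and HOXB13 did not pass. Without control replicate 1, HOXA7, HOXB5 to HOXB8 and HOXC10 no longer passed (adjusted p 0.0757 to 0.164). Without control replicate 2, HOXA4, HOXA6, HOXA7, HOXB5 to HOXB8 and HOXC10 did not (0.0581 to 0.154). Without BAP1 KO replicate 1, HOXA4, HOXA6, HOXB8 and HOXC10 did not (0.0511 to 0.101), and without BAP1 KO replicate 2, HOXA4, HOXA7, HOXB6 to HOXB8 and HOXC10 did not (0.0511 to 0.124), with the direction kept in each case.

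**Figure D2:**
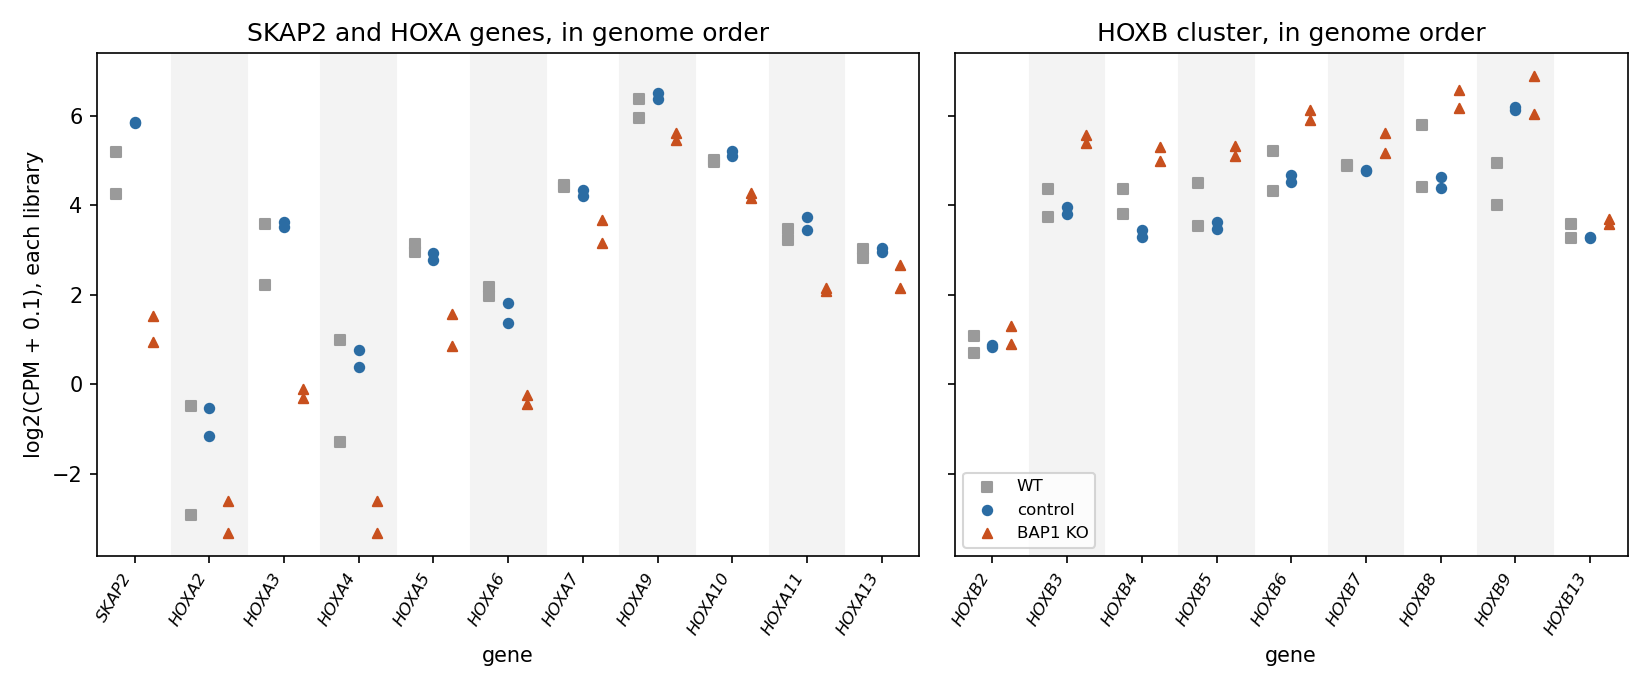
Level of SKAP2 and 10 tested HOXA genes (left) and HOXB genes (right) in genome order, as log2(CPM + 0.1); each point is 1 library of WT (grey squares), control (blue circles) or BAP1 KO (orange triangles). BAP1 KO lies below control and WT for SKAP2 and for HOXA3 to HOXA13, and above them for HOXB3 to HOXB8.

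The fall at HOXA reached past the cluster. Among 16352 runs of 21 neighbouring tested genes, whose medians lay between -0.55 and 0.46 for the middle 98%, the lowest was on chromosome 7 from SNX10-AS1 to HOTTIP (26372019 to 27207259), with a median of -1.62, 16 genes lower and none higher. SKAP2, an adaptor protein gene beside the cluster, was at 57.3 and 58.1 CPM for control against 2.78 and 1.82 CPM for BAP1 KO and fell by 4.64 ± 0.38 (adjusted p = 0.000213). WT lay between, at 36.6 and 18.9 CPM for WT. The HOXB run on chromosome 17, from SP2-AS1 to TTLL6 (47898386 to 48817229), was among the highest, with a median of 0.65 and 9 genes higher. Runs on chromosome 9 (UBAP2 to FANCG, median 0.664) and chromosome 4 (ATOH1 to SLC39A8, 0.655) stood above it. After the HOXA run, the lowest that did not overlap were on chromosome 12 (ACVRL1 to KRT79, -0.84) and chromosome 21 (LOC102723553 to NRIP1, -0.79). Some neighbours also fell together elsewhere. The kallikrein proteases KLK5 and KLK6 changed by -5.15 ± 0.60 and -4.63 ± 0.45 and KLK8 by -2.76 ± 0.29. LAMA3 and the adjacent ANKRD29 changed by -4.82 ± 0.34 and -4.30 ± 0.27. The desmocollins DSC2 and DSC3 changed by -2.77 ± 0.27 and -3.92 ± 0.29, and the caveolins CAV1 and CAV2 by -4.28 ± 0.22 and -3.95 ± 0.20. These examples were picked from genes that fell, and how often neighbours fall together over all genes was not counted. Medians of whole chromosomes lay between -0.11 and 0.10. The lowest was that of chromosome 18, where 47 of 215 tested genes fell and 15 rose. Its runs from MEX3C to PMAIP1 and from NPC1 to WBP11P1 (23506184 to 32514634) had medians of -0.74 and -0.72, with 10 and 11 genes lower and 0 and 1 higher. The second of these runs spans LAMA3.

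Against 12.1% higher and 10.4% lower over all tested genes, other developmental transcription factor genes rose more often than they fell. Of 60 tested, 13 rose and 3 fell (7, 5, 6 and 12 with 1 library left out), with a median of 0.27. FOXC1, a forkhead factor of mesoderm, rose from 92.2 and 96.7 to 334 and 322 CPM (log2 change 1.80 ± 0.27). ZIC2, a zinc finger factor of the neural plate, rose from 30.8 and 28.5 to 87.5 and 70.6 CPM (1.42 ± 0.18). OTX1, a homeobox factor of the forebrain, rose from 11.9 and 11.8 to 29.5 and 25 CPM (1.20 ± 0.17). All 3 were above WT. Of the 13 genes of the list that rose, 7 were above all control and WT libraries, and the 3 that fell were below all of them. The median of the list was 0.35 in MLL4 KO against WT. GATA3, a factor of several epithelia, fell by 2.73 ± 0.40. Of 25 neural adhesion and synaptic genes, 9 rose and 2 fell (3, 3, 3 and 6 with 1 library left out). ENO2, the neuronal enolase, rose by 1.64 ± 0.11, while MAP2, a dendritic microtubule protein, fell by 2.63 ± 0.28.

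Among the Polycomb complexes, 6 of 13 tested PRC2 genes rose and none fell (3, 1, 3 and 5 with 1 library left out). PHF19, a PRC2 subunit that recruits it to CpG islands, rose from 15.1 and 17.7 to 39.8 and 36 CPM (log2 change 1.20 ± 0.18), and was higher in WT, at 49.1 and 67.4 CPM for WT. EZH2, the catalytic subunit, was at 42.9 and 40.3 CPM for control against 68.6 and 63 CPM for BAP1 KO (log2 change 0.66 ± 0.12, adjusted p = 0.00458) and at 93.9 and 106 CPM for WT, and did not pass without control replicate 2 (adjusted p = 0.0839). EED and SUZ12, the core partners of EZH2, did not pass. Only 1 of the 6 PRC2 genes that rose was above all control and WT libraries. Control itself was lower than WT over the 13 genes, with a median log2 change of -0.52. Of 23 PRC1 genes 3 rose and 2 fell (2, 2, 2 and 3 with 1 library left out), a share near the 22.4% called over all tested genes. BMI1, a core PRC1 subunit, was at 85.2 and 92.3 CPM for control against 37.9 and 38.9 CPM for BAP1 KO and fell by 1.21 ± 0.17, below WT. CBX7, a reader of the PRC2 mark, was at 23.8 and 21.9 CPM for control against 45.6 and 44.6 CPM for BAP1 KO and rose by 0.98 ± 0.15, above WT. RNF2, the main ubiquitin ligase of PRC1, was at -0.24 ± 0.14 and did not pass. KMT2D, the gene of MLL4, was at -0.01 ± 0.18 and did not pass.

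Part of the epithelial regulators and junction genes fell. Of 11 tested regulators of epithelial or mesenchymal identity 4 fell, 1 rose and 6 did not pass (3, 3, 4 and 3 with 1 library left out). GRHL2, a transcription factor that maintains epithelial identity, was at 43.5 and 41.5 CPM for control against 1.28 and 2.53 CPM for BAP1 KO and fell by 4.50 ± 0.25 (adjusted p = 1.25e-05). OVOL1, a repressor of mesenchymal genes, was at 25.4 and 24.2 CPM for control against 4.18 and 5.73 CPM for BAP1 KO and fell by 2.33 ± 0.29. ZEB1, a repressor of epithelial genes, was at 3.72 and 4.85 CPM for control against 23.3 and 14.7 CPM for BAP1 KO and rose by 2.13 ± 0.27. The 3 genes lay outside the range of WT and control. TWIST1, which promotes mesenchymal genes, fell by 2.04 ± 0.54 (2.47 and 3.10 CPM for control against 1.18 and 0.142 CPM for BAP1 KO), and SNAI2, of the same role, did not pass (-2.91 ± 1.06). The call of TWIST1 ended without control replicate 1, control replicate 2 or BAP1 KO replicate 2 (adjusted p = 0.0832, 0.166 and 0.0847). Of 37 genes of junctions and polarity, 12 fell, 2 rose and 23 did not pass (7, 6, 7 and 13 with 1 library left out), a median of -0.48. Of the 12 that fell, 5 were below all control and WT libraries. The desmosomal DSC2 was at 69.4 and 70.1 CPM for control against 9.38 and 11.1 CPM for BAP1 KO and fell by 2.77 ± 0.27. The adhesion gene EPCAM was at 389 and 413 CPM for control against 123 and 196 CPM for BAP1 KO and fell by 1.33 ± 0.21. CLDN7, a claudin, was at 419 and 418 CPM for control against 78.4 and 141 CPM for BAP1 KO and fell by 1.93 ± 0.25, but overlapped WT at 127 and 149 CPM for WT. The summed colorectal marker level given above, which is mostly keratin reads and includes EPCAM and CLDN7, was also lowest in BAP1 KO. Not every marker was lower, since VIL1 was higher than in control. The part of the sum in these results was not tested.

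Of 9 genes of the epithelial laminin and hemidesmosomes, 6 fell and 2 rose (4, 4, 6 and 6 with 1 library left out), and 4 of the 6 were below all control and WT libraries. The laminin chain LAMA3 was at 20.1 and 22 CPM for control against 0.383 and 1.14 CPM for BAP1 KO and fell by 4.82 ± 0.34 (adjusted p = 4.89e-05), with 7.87 and 10 CPM for WT. The hemidesmosomal collagen COL17A1 was at 3.68 and 3.0 CPM for control against 0.287 and 0.356 CPM for BAP1 KO and fell by 3.35 ± 0.47, with 3.30 and 5.78 CPM for WT. DST, the plakin that links hemidesmosomes to the cytoskeleton and that also has neuronal and muscle forms, moved the other way, from 209 and 215 to 1505 and 1399 CPM (log2 change 2.77 ± 0.20, adjusted p = 5.23e-05), with 295 and 217 CPM for WT. CAV1 and CAV2, which coat caveolae, were at 155 and 151 CPM for control against 7.24 and 8.48 CPM for BAP1 KO and at 147 and 153 CPM for control against 8.30 and 11.1 CPM for BAP1 KO. WT lay above BAP1 KO for both, with 328 and 208 CPM for WT and 124 and 87.8 CPM for WT. CAVIN1, the caveolar coat adaptor, did not pass (0.13 ± 0.19). Of 18 keratins 9 fell and 2 rose, a median of -0.84, but control itself lay above WT by a median of 1.27, and 4 of the 9 were below all control and WT libraries. KRT80 fell by 3.79 ± 0.43 and KRT18, a keratin of simple epithelium, by 0.98 ± 0.12 (1068 and 1066 CPM for control against 506 and 574 CPM for BAP1 KO), both below WT. KRT20, a marker of differentiated colon epithelium, rose from 0.862 and 0.513 to 6.64 and 7.59 CPM (log2 change 3.43 ± 0.31) and KRT23 by 1.47 ± 0.17, both above WT.

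**Figure D3:**
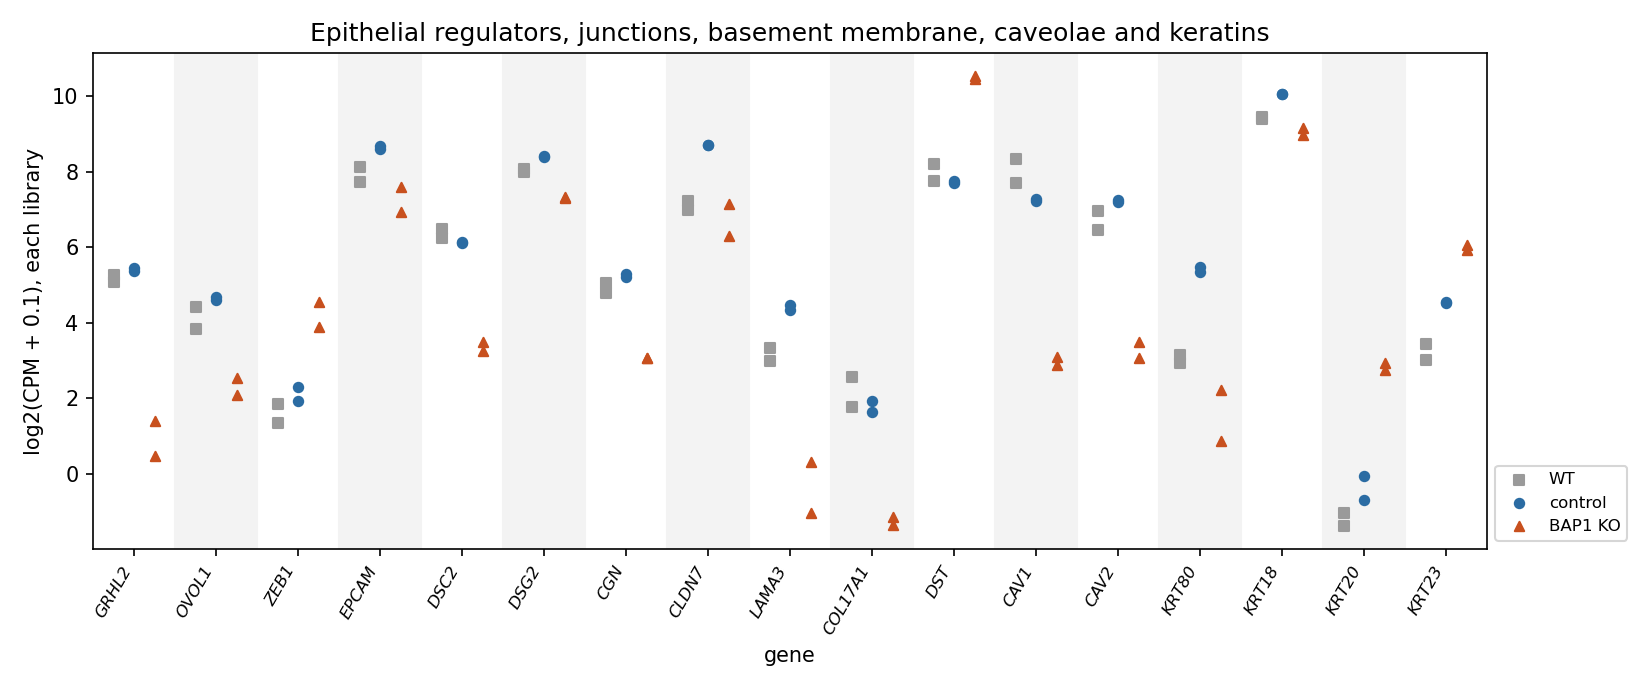
Level of 17 genes of epithelial regulation, junctions, basement membrane, caveolae and keratins, as log2(CPM + 0.1); each point is 1 library of WT (grey squares), control (blue circles) or BAP1 KO (orange triangles). BAP1 KO lies above control and WT for ZEB1, DST, KRT20 and KRT23, overlaps WT for CLDN7, and lies below both groups for the other genes.

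Most intestinal lineage factors did not pass, and those that did mostly fell. Of 22 tested, 6 fell and 1 rose (2, 2, 5 and 3 with 1 library left out), a median of -0.23. Of 23 genes of enterocytes and goblet cells 5 fell and 2 rose (5, 4, 6 and 5 with 1 library left out). The brush border linker EZR was at 2457 and 2473 CPM for control against 958 and 1122 CPM for BAP1 KO and fell by 1.25 ± 0.19, below WT. The peptide transporter SLC15A1 fell by 1.73 ± 0.29 to the level of WT. FOXA2, GATA6 and SOX9 did not pass, at -0.23 ± 1.13, 0.41 ± 0.22 and 0.48 ± 0.44.

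Many interferon-stimulated genes rose and none fell. Of 46 tested, 22 rose (10, 12, 20 and 16 with 1 library left out), a median of 0.83. Of the 46, 36 were above all control and WT libraries, where 19.4% of all genes were. IFI6, which restrains apoptosis and viral replication, was at 21 and 18 CPM for control against 155 and 184 CPM for BAP1 KO (log2 change 3.13 ± 0.29). OAS3, a sensor of double-stranded RNA, was at 38.8 and 34.9 CPM for control against 196 and 168 CPM for BAP1 KO (2.30 ± 0.13, adjusted p = 1.54e-05). IRF9, a transcription factor of the interferon response, was at 34.5 and 30.3 CPM for control against 71.2 and 72.6 CPM for BAP1 KO (1.15 ± 0.17). IFIT3 and MX1 did not pass (0.59 ± 0.23 and 0.79 ± 0.38). Their list median was 3.19 and 2.94 log2(CPM + 1) in WT, 3.98 and 4.12 in control and 4.74 and 4.91 in BAP1 KO, so control lay above WT and BAP1 KO above control. Of 32 genes of antigen presentation, 11 rose and 1 fell (5, 4, 7 and 8 with 1 library left out). Among them were the immunoproteasome subunit PSMB9 (4.74 and 3.82 CPM for control against 15 and 22.8 CPM for BAP1 KO, log2 change 2.15 ± 0.29) and HLA-F (0.90 ± 0.14), whose reads can be shared with other HLA genes. HLA-B did not pass.

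Genes of cell division rose, from a control level far below WT. All 50 tested mitosis genes rose, a median of 1.38. A further 39 of 47 genes of DNA replication rose and none fell (13, 13, 16 and 30 with 1 library left out), a median of 0.94. FOXM1, the transcription factor of mitotic genes, was at 18.6 and 19.2 CPM for control against 56.1 and 55.5 CPM for BAP1 KO (log2 change 1.56 ± 0.13, adjusted p = 0.000142). KIF20A, a kinesin of cytokinesis, was at 9.71 and 9.69 CPM for control against 43.7 and 31.2 CPM for BAP1 KO (1.95 ± 0.17). TK1, which salvages thymidine, was at 52.5 and 53.7 CPM for control against 145 and 149 CPM for BAP1 KO (1.47 ± 0.13). In comparison, the 3 genes were at 139.9 and 164 CPM for WT, 93 and 103 CPM for WT and 338 and 285 CPM for WT, above BAP1 KO. Only 1 mitosis gene and no replication gene of BAP1 KO lay above all control and WT libraries, and the median change between control and WT was -2.64 for mitosis and -2.10 for replication. Of 33 genes of homologous recombination 16 rose and 1 fell (5, 5, 5 and 13 with 1 library left out), with FANCD2 at 0.97 ± 0.13. CDKN2B, the CDK inhibitor p15, was at 89.1 and 90.3 CPM for control against 7.43 and 11.6 CPM for BAP1 KO and fell by 3.24 ± 0.22, to near 7.37 and 5.50 CPM for WT. CDKN1A, the inhibitor p21, did not pass (-0.10 ± 0.26). The growth of the cultures was not measured.

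**Figure D4:**
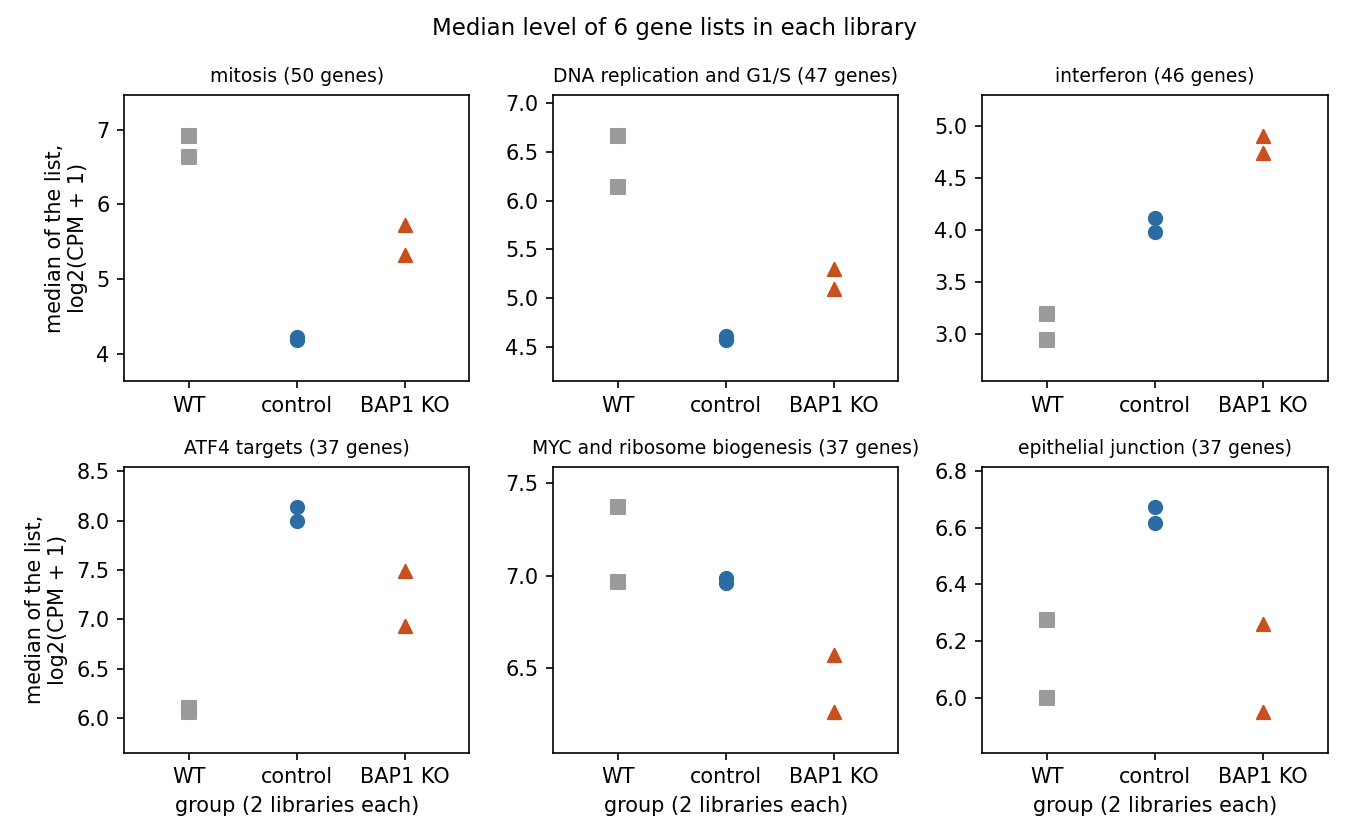
Median level of 6 gene lists in each library, as log2(CPM + 1), with 2 points for each of WT, control and BAP1 KO; the scale differs between panels. BAP1 KO lies between control and WT for mitosis, replication and ATF4 targets, above both for interferon genes, below both for ribosome biogenesis, and overlaps WT for junctions.

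Part of the amino acid response and of the secretory pathway fell. Of 37 targets of ATF4, the transcription factor of amino acid shortage, 13 fell, 24 did not pass and none rose (5, 5, 6 and 20 with 1 library left out), a median of -0.71. CTH, which makes cysteine, was at 8.03 and 8.67 CPM for control against 1.63 and 2.24 CPM for BAP1 KO and fell by 2.12 ± 0.29, below WT at 9.31 and 6.94 CPM for WT. WARS1, a tRNA synthetase, was at 330.3 and 325 CPM for control against 101 and 145 CPM for BAP1 KO and fell by 1.41 ± 0.24, close to 100.1 and 113 CPM for WT. The list median was 7.995 and 8.133 log2(CPM + 1) in control, 6.93 and 7.49 in BAP1 KO and 6.07 and 6.10 in WT. Of 28 chaperone and degradation genes of the endoplasmic reticulum 9 fell, 1 rose and 18 did not pass (1, 1, 1 and 4 with 1 library left out). The master chaperone HSPA5 was at 3384 and 3404 CPM for control against 1331 and 1426 CPM for BAP1 KO (fell by 1.30 ± 0.22) and at 762 and 1162 CPM for WT. The ferritin heavy chain gene FTH1 went from 5963 and 6071 to 1232 and 1778 CPM and fell by 2.00 ± 0.20, to about the level of WT, 1401 and 1754 CPM for WT.

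Part of the ribosome biogenesis genes fell. Of 37 genes of MYC and ribosome biogenesis 17 fell and none rose (4, 3, 3 and 12 with 1 library left out), a median of -0.54, and 16 of the 17 were below all control and WT libraries. Without WT replicate 1 or WT replicate 2 the count of called members was 26. MYC itself, the growth regulator, was at 287 and 292 CPM for control against 93.6 and 131 CPM for BAP1 KO and fell by 1.36 ± 0.17, with 398 and 403 CPM for WT. MYBBP1A, a nucleolar protein, was at 178 and 168 CPM for control against 75.9 and 90.5 CPM for BAP1 KO and fell by 1.06 ± 0.17, below WT. NCL, nucleolin, did not pass (-0.19 ± 0.17). Of 77 ribosomal protein genes 31 fell and none rose, a median of -0.38. That count was 0 without either control library or BAP1 KO replicate 1, 42 without BAP1 KO replicate 2 and 8 with the replicate number as a block. The list median was 9.53 and 9.52 log2(CPM + 1) in control, 9.03 and 9.34 in BAP1 KO and 9.21 and 9.33 in WT, where the BAP1 KO replicates differ by about as much as the groups. 

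Called members of growth factor and inflammatory pathways lay in both directions. Of 45 genes of MAPK signalling and the immediate early response 6 rose and 6 fell (5, 5, 7 and 10 with 1 library left out). Of 21 targets of YAP and TEAD 4 rose and 6 fell (5, 4, 4 and 6 with 1 library left out). Of 26 genes of TGF-beta and BMP signalling 5 rose and 2 fell (2, 2, 5 and 5 with 1 library left out). The counts of the first and the last of these lists were near the shares over all tested genes (12.1% higher and 10.4% lower). Without WT replicate 1 or 2 the called members numbered 19 for the first of these lists and 13 for the last. The EGF receptor ligand EREG was at 989 and 1017 CPM for control against 104 and 145 CPM for BAP1 KO and fell by 3.01 ± 0.37, below WT at 584 and 586 CPM for WT. DUSP5, a phosphatase of ERK, fell by 1.65 ± 0.25, to levels above 113 and 132 CPM for WT. Of 34 NF-kB targets and cytokines 11 fell and 3 rose (6, 6, 10 and 9 with 1 library left out). The chemokine CXCL2 fell by 3.92 ± 0.55 and the apoptosis inhibitor BIRC3 by 2.15 ± 0.24, both from control levels above WT. In TGF-beta signalling the receptor TGFBR2 was at 38.2 and 37.9 CPM for control against 11.9 and 9.80 CPM for BAP1 KO and fell by 1.81 ± 0.29, below WT. Its feedback inhibitor PMEPA1 was at 0.548 and 0.667 CPM for control against 4.43 and 3.49 CPM for BAP1 KO and rose by 2.68 ± 0.32, above WT. The TEAD1 factor of the Hippo pathway rose by 1.94 ± 0.13 (101 and 106 CPM for control against 422 and 371 CPM for BAP1 KO), above WT. PTPN14, an inhibitor of its partner YAP, rose by 1.23 ± 0.17, and the WNT antagonist receptor KREMEN1 by 1.32 ± 0.13. The growth factor gene IGF2 was at 21.9 and 22.4 CPM for control against 75.1 and 69.3 CPM for BAP1 KO and rose by 1.70 ± 0.12, and IGF2BP3, which binds its messenger RNA, rose by 1.79 ± 0.15, both above WT.

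Metabolic genes moved in both directions. Of 34 genes of cholesterol and fatty acid synthesis 12 rose and none fell (2, 2, 6 and 4 with 1 library left out). Among them were the sterol carrier STARD4 (16.1 and 16.3 CPM for control against 48.7 and 38.8 CPM for BAP1 KO, log2 change 1.43 ± 0.17) and the acyl-CoA synthetase ACSL3 (0.98 ± 0.14). Only 3 of the 12 that rose were above all control and WT libraries. Control itself was lower than WT over the 34 genes, with a median log2 change of -0.88. In glycolysis the glucose transporter SLC2A1 rose by 1.60 ± 0.19 (104 and 114 CPM for control against 380.4 and 278 CPM for BAP1 KO). HK2, a hexokinase, fell by 1.74 ± 0.24 (101 and 95.8 CPM for control against 22.5 and 36.4 CPM for BAP1 KO), and both genes lay outside the range of WT. GCLC, which makes glutathione's precursor, fell by 0.95 ± 0.14. Of 62 nuclear genes of oxidative phosphorylation 3 rose and none fell (1, 1, 2 and 3 with 1 library left out), with 6 called without WT replicate 1 or 2, a median of -0.02.

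**Figure D5:**
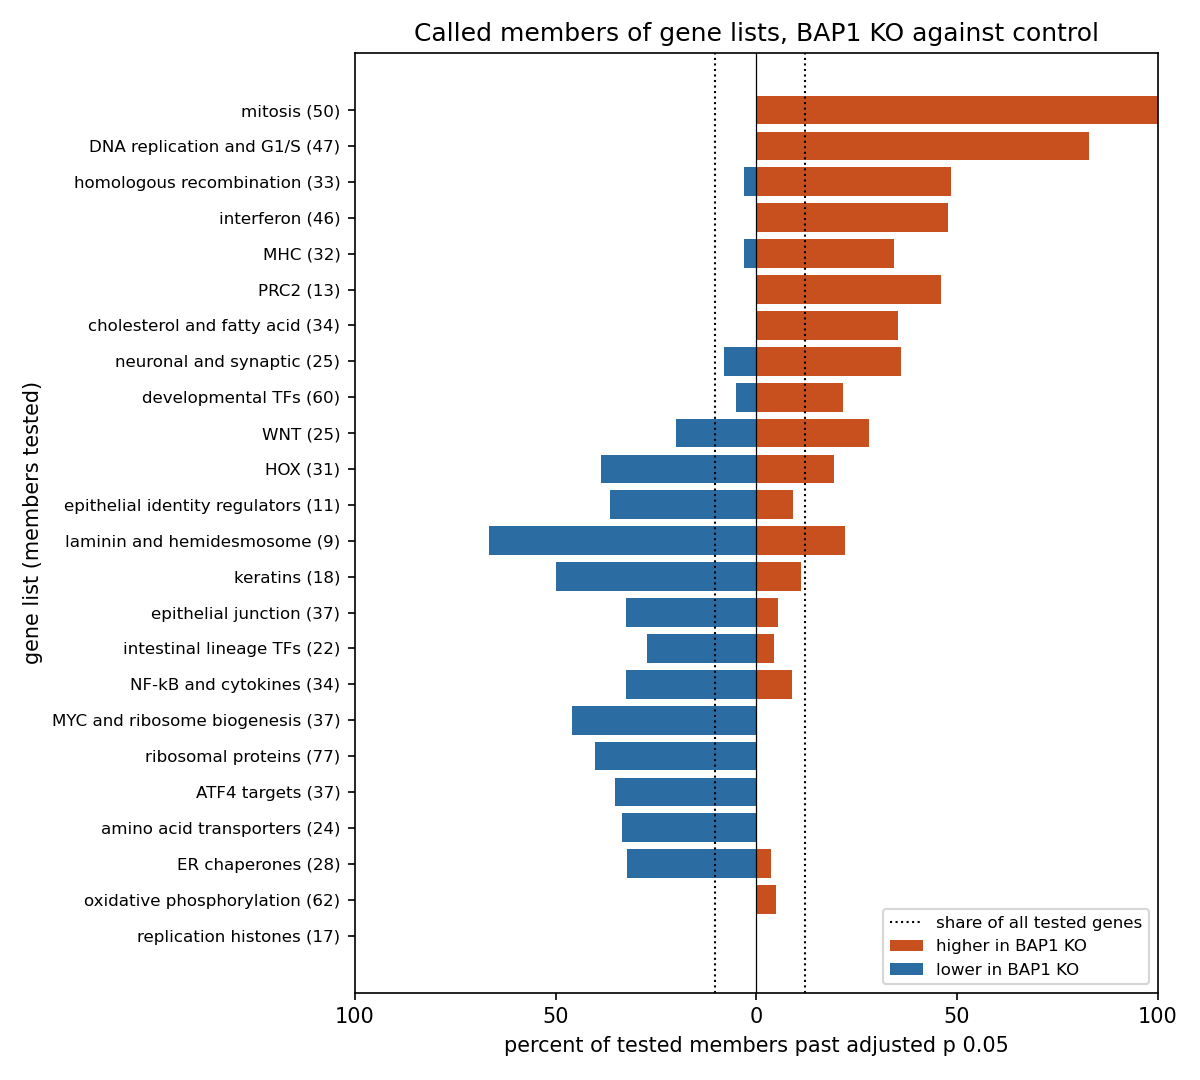
Share of tested members of 24 gene lists past an adjusted p of 0.05 in BAP1 KO against control, higher to the right and lower to the left, with the number tested in brackets; dotted lines mark the shares over all tested genes (12.1% higher, 10.4% lower). All 50 mitosis genes rose, and the lists of laminin, keratin, ribosome biogenesis and ribosomal protein genes reach farthest to the left.

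The comparison of MLL4 KO with WT, which shares no library with this comparison, gave 3219 calls (19.1%). Both came from the same fit and share each gene's estimate of spread, so their calls are not independent. A total of 1008 genes passed in both, 26.7% of the BAP1 KO calls and 31.3% of the MLL4 KO calls, 670 of them in the same direction. SLC1A3 and MGLL fell in both: the log2 changes in MLL4 KO were -3.33 ± 0.23 and -2.90 ± 0.27. The BAP1 effect minus the MLL4 effect was -2.07 ± 0.48 and -1.88 ± 0.41, each past the test of the difference (adjusted p = 0.0215 and 0.0168), which 16.1% of all genes passed. Neither difference passed without control replicate 1, control replicate 2 or BAP1 KO replicate 1 (adjusted p 0.0615 to 0.118). That of SLC1A3 also did not without BAP1 KO replicate 2 or MLL4 KO replicate 2 (0.0581 and 0.0585), and that of MGLL not without MLL4 KO replicate 2 (0.0572). With limma-voom the difference of SLC1A3 had an adjusted p of 0.0520. FOXC1, CBX7 and KRT20 rose in both, by 1.65 ± 0.27, 1.17 ± 0.15 and 2.89 ± 0.41 in MLL4 KO, with differences of 0.14 ± 0.37, -0.19 ± 0.21 and 0.54 ± 0.62 that did not pass. CAV1, CAV2 and GDA fell in BAP1 KO, with log2 changes of -0.03 ± 0.19, 0.07 ± 0.18 and 0.01 ± 0.21 in MLL4 KO that did not pass and differences of -4.25 ± 0.29, -4.02 ± 0.27 and -5.77 ± 0.36 that passed. The effects had opposite signs for CDKN2B (1.35 ± 0.22 in MLL4 KO), the guidance receptor UNC5B (1.44 ± 0.15, against -0.98 ± 0.15 in BAP1 KO) and KRT18 (1.01 ± 0.12), with differences of -4.59 ± 0.31, -2.42 ± 0.21 and -1.99 ± 0.17 that passed.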

How the data were processed

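Poly(A) RNA was selected from total RNA, per the labels' protocols. The submitters' processing notes name bcl2fastq, STAR, Bowtie2, SICER 1.1 and build hg38, without roles. The counter and its strand setting were not given in the sources used here, so a gene's reads may include those of an antisense partner. The authors deposited raw read counts and RPKM per RefSeq transcript, per the file headers, and the counts were used. Transcripts were given symbols from RefSeq tables, the transcript with the highest mean count stood for its gene (28105 genes), and rows with no symbol (0.23% to 0.252% of counts) were left out. Genes that share reads with near-identical copies are uncertain.

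The 8 RNA libraries (WT, MLL4 KO, control, BAP1 KO) entered 1 edgeR 4.0.16 fit (R 4.3.3) with a mean per group, TMM scaling, the default expression filter and robust quasi-likelihood tests, with Benjamini-Hochberg adjustment over 16831 genes. The SE is the absolute log2 change divided by the square root of F. Intervals and floors cover counting error only. On simulated counts of 16474 genes the fit recovered 11.9% of 1.5-fold, 70.2% of 2-fold and 90.9% of 4-fold changes, with 8 of 123 calls false. Only 67, 67 and 66 genes were changed by these folds, the groups otherwise had equal means, and dispersion followed its trend with level. Far more genes were called in the data, so these rates need not hold there. Alternatives were limma 3.58.1, DESeq2 1.42.0, other scalings and filters, the 4 libraries alone, a replicate block and leaving out each library.

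Members and lists were chosen with earlier results of these data known. Genes were named as members of the Polycomb and related lists, the 20 largest changes and 10 smallest p in each direction with at least 5 CPM and no overlap, the 4 smallest p per direction of each list, ends of runs, or other list members with their value. Some genes that the rule gives are not reported here.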

Additional observations from a re-analysis of the deposited data

How the results depend on the processing

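The count of 3778 calls lay between 3489 and 4045 under RLE or upper-quartile scaling, another filter, no robust step, other transcript choices, limma-voom, DESeq2 and the fit without ribosomal RNA rows, which was chosen after seeing the data. It was 6659 in the fit on only the 4 libraries and 1014 in the test against a 1.5-fold change, which left 981 of the 1610 calls of at least 2-fold and 115 of the 185 passing differences from MLL4 KO among the genes the naming rule gave. With 1 library left out, the ranges were 1076 to 5015 calls, 867 to 1774 calls of at least 2-fold and 101 to 193 such differences. A group with 1 library left was assumed to vary like the others. The fit on only the 4 libraries gives no difference from MLL4 KO.

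The replicate numbers are only shared numbers: the deviations of control replicate 1 and BAP1 KO replicate 1 correlated at 0.0058 across genes. With the replicate block the calls were 2481, of which 2412 were also called without it, and the lower calls among ribosomal protein genes were 8 instead of 31. No named call reversed under any alternative, and 96 of 109 named calls passed under all of them other than the 1.5-fold test. The named genes were partly chosen by small p and large change in these same data, so their share does not describe all calls. The number of all calls that held is given with the counts of calls in the Results. Depth limits genes under about 1 CPM, where a call rests on few reads.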
